A study of Homo sapiens with 16 samples.

Results

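The chemokine genes CXCL12 and CCL2 and the CXCL12 receptor genes CXCR4 and ACKR3 were looked up by Ensembl identifier in the 2 tables of library values, which list 26410 genes. The 4 genes had been chosen on their values in all 4 groups of libraries, so their own differences are given below as a description, and nothing is read from their place among the genes tested. Of the 4 genes, 3 have a row in both tables, and ACKR3 was not analysed here. Poly(A) RNA had been sequenced from SH-SY5Y cells, a human neuroblastoma cell line. CRISPR had been used with a guide against TRPM2, an oxidant-activated calcium channel, or with a scrambled guide, in both cases together with a donor that carries GFP and a puromycin marker between TRPM2 homology arms. Clones had been grown from single cells after puromycin selection. Clones KO11 and KO28 carry the label TRPM2 KO and clones Scr13 and Scr16 are the scrambled (Scr) controls, and each clone gave 2 libraries without treatment and 2 after 24 h with doxorubicin, a drug that damages DNA. The sample labels and the study's text state 0.3 µM doxorubicin and the design text of the series states 3 µM. The libraries of KO11 and KO28 are called KO-labelled below. The 16 libraries thus form 4 groups of 4 libraries from 2 clones each, and the p-values below measure the spread between libraries that partly share a clone.

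Chemokines are small secreted proteins that direct cell migration through G protein-coupled receptors. CXCL12 is made by stromal and mesenchymal cells of many tissues, signals through CXCR4, and is taken up by the scavenging receptor ACKR3. CCL2 is an inducible chemokine that attracts monocytes through the receptor CCR2, and its transcription is known to respond to NF-κB. CXCR4 signals through Gi proteins and is switched off by G protein-coupled receptor kinases, arrestins and RGS proteins, and in neuroblastoma it has been studied for its part in spread to the bone marrow.

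The TRPM2 guide, with the 3 bases that follow its target in capitals, is shown because it defines the labels of the groups. It matched the plus strand of chr21:44353718-44353737 of GRCh38, inside coding sequence of TRPM2 that is exon 1 or exon 2 of the annotated transcripts.

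TRPM2 guide: gaggaaagctggctcggagcAGG

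Without treatment, TRPM2 had 1.93 and 2.23 normalized CPM (reads scaled by the authors for library size) in the KO11 libraries and 1.41 and 2.19 in the KO28 libraries. Both Scr16 libraries had 0 reads without treatment, which allows a level of up to 0.184 and 0.170 normalized CPM (3 reads per library, counting error only), and the Scr13 libraries had 0.118 and 0.115. TRPM2 reads without treatment were thus higher in the KO-labelled libraries, against the label, and the values per whole gene do not show whether the edited stretch was read. After doxorubicin, KO11 had 1.22 and 1.83 normalized CPM, KO28 had 1.37 and 0.658, Scr13 had 0.0594 and 0.0631 and Scr16 had 1.33 and 0.390, so that the groups overlapped. The antisense gene TRPM2-AS lies on the opposite strand, and reads of the pair can be told apart only if strand was used in counting, which the sources used here do not give. The study's text states that its knockout and control clones were checked by Western blotting and RT-PCR. Whether labels were exchanged was not tested, and an exchange would turn the sign of every difference between knockout and control.

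The SH-SY5Y identity was checked against 20 adrenergic neuroblastoma markers, which all had a row. The neuronal gene STMN2 averaged 1519.7 normalized CPM in the untreated KO-labelled libraries against 1480.5 in their Scr counterparts, and DBH, which makes noradrenaline, averaged 1847 and 1635.5. TH, the first enzyme of catecholamine synthesis, averaged 0.328 normalized CPM over the 16 libraries and INSM1 averaged 0.0166, so that these defining markers were close to absent. One library stood apart. Replicate 1 of Scr16 after doxorubicin had the fewest reads on genes, 10481177 against a median of 16037366.5 and a highest total of 25086085, and correlated with its replicate at 0.975 over 15325 genes, the lowest of the 8 pairs. It also had the highest TRPM2 and CCL2 values of the Scr libraries after doxorubicin, and differences and ratios that moved by more than 1.5 times without it are given both ways.

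CXCL12 (ENSG00000107562) lies on the minus strand of chr10:44370165-44386493 of GRCh38, CXCR4 (ENSG00000121966) on the minus strand of chr2:136114349-136118165 and CCL2 (ENSG00000108691) on the plus strand of chr17:34255218-34257203. No annotated gene overlaps any of the 3. The 250 bases before the RefSeq start of CXCL12 and before the most upstream RefSeq start of CXCR4 (both GRCh38.p14, minus strand) are shown because the 2 genes encode a ligand and its receptor with very different levels in these cells. Capitals mark the GC box letters GGGCGG and the TATA box letters TATAAA, read on both strands. The gene spans above, from GENCODE 29, start further upstream than these RefSeq starts, so that they contain the whole CXCL12 window and the last bases of the CXCR4 window.

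CXCL12 promoter, chr10:44385098-44385347: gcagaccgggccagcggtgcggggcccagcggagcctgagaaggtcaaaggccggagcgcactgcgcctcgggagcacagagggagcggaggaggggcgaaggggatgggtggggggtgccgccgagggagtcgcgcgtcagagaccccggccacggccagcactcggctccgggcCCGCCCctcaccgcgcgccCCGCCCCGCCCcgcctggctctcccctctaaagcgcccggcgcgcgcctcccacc

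CXCR4 promoter, chr2:136118150-136118399: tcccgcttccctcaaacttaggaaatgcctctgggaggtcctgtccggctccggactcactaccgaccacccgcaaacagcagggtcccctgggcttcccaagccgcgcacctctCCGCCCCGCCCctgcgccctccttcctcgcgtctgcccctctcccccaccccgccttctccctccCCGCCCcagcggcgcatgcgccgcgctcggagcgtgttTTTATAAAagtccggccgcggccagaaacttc

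The CXCL12 window had 78.0% G and C and 31 CpG dinucleotides, and the CXCR4 window had 68.0% and 24, against medians of 58.0% and 11 over 35116 promoter windows of the same length. The CXCL12 window held 3 GC boxes, the nearest starting 50 bases before the start. The CXCR4 window also held 3 GC boxes and in addition a TATA box whose letters match on both strands in overlapping positions, 32 and 30 bases before the start. GC boxes occurred in 42.6% of all windows and TATA boxes in 10.7%. Neither window held the letters TGANTCA (AP-1, in 6.57% of windows), ACGTG (hypoxia response core, in 18.5%) or GGANTTTCC (an NF-κB core, in 1.45%), each searched on both strands.

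CXCL12 was higher in every KO-labelled library than in every Scr library of the same treatment. Without treatment, it had 3.75 and 3.31 normalized CPM in KO11, 4.69 and 2.33 in KO28, 0.945 and 1.04 in Scr13, and 1.78 and 0.568 in Scr16. After doxorubicin, it had 11.8 and 10.2 normalized CPM in KO11, 14.1 and 7.41 in KO28, 0.119 and 0.505 in Scr13, and 0.475 and 0.325 in Scr16. The means of KO11 and KO28 were close to each other, 3.53 and 3.51 normalized CPM without treatment and 10.99 and 10.74 after doxorubicin, and the replicates within KO28 lay further apart than that. The lowest values rest on few reads, from 2 to 8 reads per Scr library after doxorubicin. Mean levels without treatment were 3.52 ± 0.980 normalized CPM (SD, n = 4) for the KO-labelled and 1.08 ± 0.507 for the Scr libraries, a ratio of 3.25. They were 10.9 ± 2.79 and 0.356 ± 0.177 (SD, n = 4) after doxorubicin, a ratio of 30.5, which lay between 25.0 and 35.5 with any 1 library left out. On the log2(normalized CPM + 1) scale, which understates changes of genes at such low levels, the differences were 1.12 (SE 0.27) without treatment and 3.11 (SE 0.26) after doxorubicin.

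**Figure D1:**
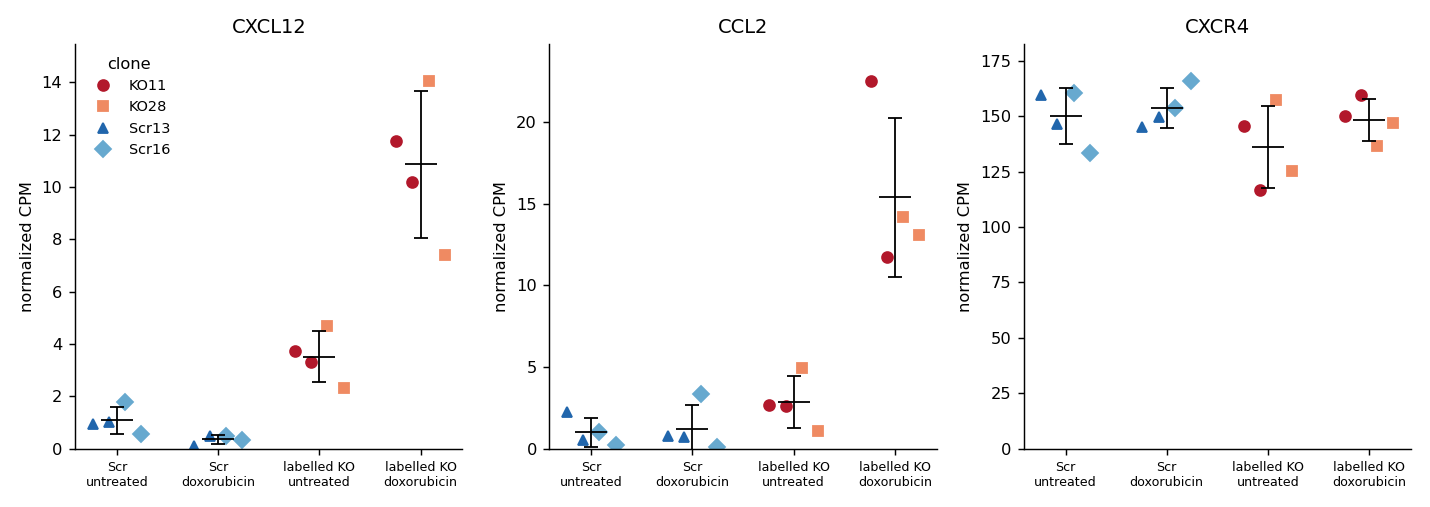
Normalized CPM (linear axis from 0) of CXCL12, CCL2 and CXCR4 in each of the 16 libraries, by group, with the clone as colour and shape. Black lines are group means and error bars are SDs of 4 libraries, cut off at 0. The KO-labelled libraries after doxorubicin stand above all others for CXCL12 (7.41 to 14.1) and CCL2 (11.7 to 22.5), and the 4 groups overlap for CXCR4.

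The CXCL12 values of the treated libraries lay on opposite sides of the untreated ones in the 2 kinds of clone. In KO11, the mean was 3.11-fold higher after doxorubicin than without treatment, and in KO28 it was 3.06-fold higher. In Scr13, the untreated mean was 3.18-fold that after doxorubicin, and in Scr16 it was 2.94-fold. Treated and untreated libraries did not overlap in either kind of clone, although in the Scr clones the gap was narrow, between 0.505 normalized CPM in a treated and 0.568 in an untreated library. The difference after doxorubicin was 1.39 (SE 0.23) on the log2(normalized CPM + 1) scale in the KO-labelled libraries and -0.60 (SE 0.30) in the Scr libraries, and these comparisons share libraries with those above. CXCL12 passed the filter on low values after doxorubicin only through the KO-labelled libraries, and in the comparison of treated and untreated Scr libraries it did not pass at all. The difference in the Scr libraries was also smaller than 2 standard errors.

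CCL2 had lower and more variable values without treatment and was higher in every KO-labelled library after doxorubicin than in any other library. Without treatment, it had 2.70 and 2.59 normalized CPM in KO11, 4.96 and 1.09 in KO28, 2.24 and 0.518 in Scr13, and 1.04 and 0.227 in Scr16, so that the groups overlapped. After doxorubicin, it had 22.5 and 11.7 normalized CPM in KO11, 14.2 and 13.1 in KO28, 0.772 and 0.694 in Scr13, and 3.33 and 0.130 in Scr16. The highest Scr value came from the shallow replicate 1 of Scr16, and the groups were still separate. Mean levels without treatment were 2.84 ± 1.60 normalized CPM (SD, n = 4) for the KO-labelled and 1.01 ± 0.890 for the Scr libraries, a ratio of 2.81. After doxorubicin they were 15.4 ± 4.87 and 1.23 ± 1.43 (SD, n = 4), a ratio of 12.5, which was 28.9 without replicate 1 of Scr16. The untreated ratio was 4.76 without replicate 1 of Scr13. The differences were 0.94 (SE 0.34) without treatment and 3.02 (SE 0.32) after doxorubicin on the log2(normalized CPM + 1) scale. In every clone and treatment, CCL2 was higher in replicate 1 than in replicate 2, which these standard errors do not take into account.

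The CCL2 mean was 6.47-fold higher after doxorubicin than without treatment in KO11 and 4.51-fold higher in KO28. The Scr clones differed from each other, with a ratio of treated to untreated means of 0.531 in Scr13 and 2.72 in Scr16, the latter resting on replicate 1. Over the 4 Scr libraries of each treatment the ratio was 1.22, and it was 0.528 without that library and 2.06 without the untreated replicate 1 of Scr13, so that no direction can be given for CCL2 in the Scr clones. The difference was 2.15 (SE 0.26) on the log2(normalized CPM + 1) scale in the KO-labelled libraries and 0.062 (SE 0.40) in the Scr libraries, where CCL2 did not pass the filter on low values.

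CXCR4 was at a similar level in all groups. Without treatment, it had 145 and 117 normalized CPM in KO11, 157 and 125 in KO28, 160 and 147 in Scr13, and 161 and 134 in Scr16. After doxorubicin, it had 150.0 and 160 normalized CPM in KO11, 136 and 147 in KO28, 145 and 150 in Scr13, and 154 and 166 in Scr16. The 4 group means lay between 136 ± 18.6 in the untreated KO-labelled libraries and 154 ± 8.92 in the Scr libraries after doxorubicin (SD, n = 4), and neighbouring groups in this order did not differ beyond their spread. The differences between KO-labelled libraries and Scr libraries were -0.15 (SE 0.091) without treatment and -0.05 (SE 0.076) after doxorubicin, and those between treated and untreated libraries were 0.13 (SE 0.090) in the KO-labelled libraries and 0.04 (SE 0.076) in the Scr libraries, all on the log2(normalized CPM + 1) scale. Each of the 4 differences was smaller than 2 standard errors, which does not show that the levels are equal. CXCR4 was higher in replicate 1 than in replicate 2 of every untreated clone and lower in replicate 1 of every treated one. The standard errors do not take this into account.

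**Figure D2:**
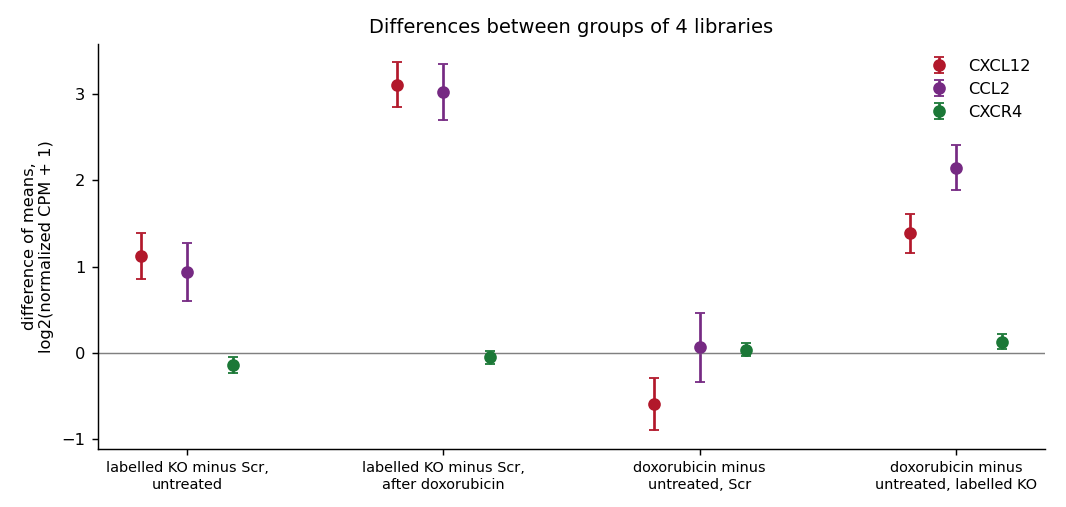
Differences between groups of 4 libraries on the log2(normalized CPM + 1) scale for CXCL12, CCL2 and CXCR4, with standard errors as bars. CXCL12 and CCL2 differ most between the KO-labelled libraries and the Scr libraries after doxorubicin (3.11 and 3.02), CXCL12 lies below 0 for doxorubicin in the Scr libraries (-0.60), and CXCR4 lies between -0.15 and 0.13 throughout.

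Per kilobase of exon, the receptor was the most abundant of the 3 genes in every group. In the KO-labelled libraries after doxorubicin, the mean level was 66.6 normalized CPM per kilobase for CXCR4, 7.74 for CCL2 and 1.79 for CXCL12. In the Scr libraries after doxorubicin it was 69.1 for CXCR4, 0.620 for CCL2 and 0.0586 for CXCL12. In bulk samples such as these, fewer cells that express a gene and less RNA per cell cannot be told apart.

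For the background, limma was run on genes that reached 1 normalized CPM in 4 or more of the 8 libraries compared, at a Benjamini-Hochberg adjusted p under 0.05. Without treatment, 2.3% of 14364 genes passed as higher and 2.54% as lower in the KO-labelled libraries, and in 9.29% the 4 libraries of a group lay all above or all below the other 4. Of the 3 chemokine and receptor genes, 1 was past this threshold and 1 had groups without overlap, in both cases CXCL12. After doxorubicin, the background was 4.52% higher and 4.17% lower of 14572 genes, with 13.2% without overlap, and 2 of the 3 genes, CXCL12 and CCL2, were past the threshold and without overlap. For doxorubicin in the Scr libraries, 6.67% of 14378 genes were higher and 4.94% lower, with 17.1% without overlap, and the only gene of the 3 that reached the minimum level, CXCR4, was not past the threshold. For doxorubicin in the KO-labelled libraries, 10.1% of 14513 genes were higher and 7.38% lower, with 19.8% without overlap, and CXCL12 and CCL2 were past the threshold and without overlap. Since these values chose the genes, these counts are no test of the 3 genes. CXCL12 after doxorubicin also reached the minimum level only in the group where it is high. So did CCL2, but for replicate 1 of Scr16.

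Few other chemokine ligands could be tested. Of 42 ligand genes besides CXCL12 and CCL2, 5 had a row, the other 37 were not analysed here, and 1 was abundant enough to be tested, namely CX3CL1, a membrane-bound chemokine of neurons. KO-labelled libraries had 21.3 ± 1.43 normalized CPM of it (SD, n = 4) without treatment and 27.0 ± 4.87 after doxorubicin. Its values were 25.6 ± 2.58 and 22.8 ± 4.54 in the Scr libraries, and it passed the test in none of the 4 comparisons (limma with Benjamini-Hochberg adjustment, adjusted p between 0.117 and 0.489). CXCL16 averaged 0.856 normalized CPM in the KO-labelled libraries after doxorubicin and 0.381 in the Scr libraries, and CXCL14 averaged 0.409 and 0.0558. CCL7, the gene next to CCL2 at a distance of 13018 bases, averaged 0.198 normalized CPM in the KO-labelled libraries after doxorubicin and had no read in the other 3 groups. Of the neighbours of CXCL12, RPL9P21 and ENSG00000270767 had a row and were too low to be tested, and the others were not analysed here.

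Of 22 receptor genes besides CXCR4, 6 had a row and 2 were tested. ACKR1, a scavenging receptor that binds CCL2 among others, was lower in the untreated KO-labelled libraries, with 2.31, 1.33, 0.939 and 0.511 normalized CPM against 3.39, 3.74, 4.30 and 2.33 in the Scr libraries. The groups were separated by a small gap, and the log2 difference of -1.01 (SE 0.28) passed the test (limma with Benjamini-Hochberg adjustment, adjusted p = 0.0378). The call was kept under 7 of 19 alternatives and in 2 of 8 fits with 1 library left out, those without replicate 1 of KO11 and without replicate 2 of Scr16. CCR10 averaged 2.37 normalized CPM in the KO-labelled libraries after doxorubicin and 2.28 in the Scr libraries. CCR2, the receptor of CCL2, was not analysed here.

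Most genes of the machinery around CXCL12 and CXCR4 were expressed. Of 46 genes that process CXCL12 or carry CXCR4 signals, 41 were tested, and 2 (RGS16 and CTSB) were higher and 2 (GRK5 and GNG2) lower in the untreated KO-labelled libraries, 4.88% of the list each way against 2.3% and 2.54% over all genes tested. The count of 2 higher was 1 without replicate 2 of Scr13, either replicate of Scr16 or replicate 1 of KO28, and 0 without clone Scr13 and with no filter. The call of CTSB was kept in 2 of 8 fits with 1 library left out. With no filter the count of 2 lower was 1, as GRK5 was lost (limma with Benjamini-Hochberg adjustment, adjusted p = 0.0907). After doxorubicin, 6 were higher and 2 lower, with a median log2 difference of 0.078 over the 41 genes against 0.014 over all genes tested. Against shares of 4.52% higher and 4.17% lower over all genes tested after doxorubicin, 14.6% and 4.88% of the list passed, so that the lower ones were near the background. The count of 6 was 3 without clone KO11, and 4 without clone KO28 or without the treated replicate 1 of KO11. RGS16, which speeds the shut-off of G proteins, was higher in the KO-labelled libraries after doxorubicin, and GRK5, a kinase that desensitizes receptors, was lower.

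RGS16 had 22.5, 25.2, 19.9 and 26.7 normalized CPM in the KO-labelled libraries after doxorubicin and 8.02, 8.64, 9.89 and 7.40 in the Scr libraries. The log2 difference was 1.37 (SE 0.16; limma with Benjamini-Hochberg adjustment, adjusted p = 6.07e-06), and without treatment it was 0.95 (SE 0.21, adjusted p = 0.00694 by the same test), a call lost with no filter and without clone Scr13 or KO28. GRK5 had 15.5, 15.6, 12.2 and 11.9 normalized CPM in the KO-labelled libraries after doxorubicin and 29.1, 30.4, 41.0 and 42.7 in the Scr libraries, a log2 difference of -1.31 (SE 0.16; limma with Benjamini-Hochberg adjustment, adjusted p = 5.47e-06). Neither gene overlapped between the groups, in either treatment. GNG2, a G protein gamma subunit, was lower in both treatments, with log2 differences of -0.68 (SE 0.08) without treatment and -0.60 (SE 0.09) after doxorubicin (limma with Benjamini-Hochberg adjustment, adjusted p = 1.14e-05 and 6.23e-05).

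The other genes of this list that passed after doxorubicin were all higher. STAT3, a transcription factor that cytokine receptors activate, had means of 126 and 91.9 normalized CPM, a log2 difference of 0.45 (SE 0.08; limma with Benjamini-Hochberg adjustment, adjusted p = 0.000822). CTSB, a cathepsin, had means of 442 and 321 normalized CPM. CD164, GNAI2 and ELMO1 completed the 6, and without the treated replicate 1 of KO11 the calls of GNAI2 and ELMO1 were lost. ELMO1 was also lost without the treated replicate 1 of Scr13 or of KO28. The most abundant genes of the list, GNB1 and GRK3, did not pass, with log2 differences of -0.07 (SE 0.08) and 0.14 (SE 0.08) after doxorubicin.

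With doxorubicin itself, 11 of the 41 genes were higher and 2 lower in the KO-labelled libraries, and 3 were higher and 1 lower in the Scr libraries. These are 26.8% and 4.88% in the KO-labelled libraries, against 10.1% and 7.38% over all genes tested, and 7.32% and 2.44% in the Scr libraries, against 6.67% and 4.94%, so that the Scr counts were near or below the background. With no filter, the 11 and 3 higher were 2 and 1. The difference between these counts was not tested. STAT3 rose in both, by 0.66 (SE 0.09) and 0.53 (SE 0.09) on the log2 scale (limma with Benjamini-Hochberg adjustment, adjusted p = 8.28e-06 and 0.000933). HMGB1, a nuclear protein that forms a complex with CXCL12 when released, fell in both, by 0.53 (SE 0.09) and 0.42 (SE 0.07; limma with Benjamini-Hochberg adjustment, adjusted p = 0.000113 and 0.000575). The count of 11 was 7 without either untreated library of KO11, 7 without the treated replicate 1 of KO11 and 5 without the treated replicate 2 of KO28. Without clone KO11 it was 3, and the call of STAT3 in the Scr libraries was lost without clone Scr13. Of the 2 lower in the KO-labelled libraries, GRK5 kept its call in 7 of 16 alternatives and in 3 of 8 fits with 1 library left out.

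The NF-κB list was written because CCL2 is a known target of this factor. Of 29 feedback and target genes, 19 were tested after doxorubicin, and 4 were higher and 1 lower in the KO-labelled libraries, with a median log2 difference of 0.26 against 0.014 over all genes tested. These are 21.1% and 5.26% of the list against 4.52% and 4.17% over all genes tested, the lower share being near the background. Those higher were ICAM1, a leukocyte adhesion molecule, BCL3, an atypical IκB protein, IRF1, an interferon-responsive transcription factor, and IL32, a cytokine. The gene that was lower was CFLAR, an inhibitor of caspase-8 activation. The most abundant genes of the list, TNIP1 and SOD2, did not pass, with log2 differences of 0.05 (SE 0.07) and -0.05 (SE 0.08).

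ICAM1 had 4.67, 2.52, 3.20 and 4.13 normalized CPM in the KO-labelled libraries after doxorubicin and 0.713, 0, 0.190 and 0 in the Scr libraries, without overlap. The log2 difference was 1.93 (SE 0.30). All its Scr values were under 1 normalized CPM, so that it was tested only because it was high in the KO-labelled libraries, and in the fit with no filter it had an adjusted p of 0.0112 (limma with Benjamini-Hochberg adjustment). BCL3 had 5.63, 2.77, 5.89 and 4.84 normalized CPM against 2.14, 0.946, 0 and 1.36, a log2 difference of 1.53 (SE 0.33, adjusted p = 0.00353 by limma with the filter). For IL32 the difference was 1.46 (SE 0.34, adjusted p = 0.0069 by the same test), and for IRF1 it was 1.44 (SE 0.35, adjusted p = 0.01 by the same test). The IRF1 difference was 0.94 without replicate 1 of Scr16, where the call was kept. Its call was lost with no filter, with DESeq2 and without clone KO11 or KO28, that of BCL3 with no filter and without clone KO28, and that of IL32 with no filter, without clone Scr13 and without the treated replicate 1 of KO11.

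Without ICAM1, 3 genes of the list were higher after doxorubicin. BCL3 and IL32 passed the filter mainly through the KO-labelled libraries. The count of 4 was 2 without the treated replicate 1 of KO11, 1 without clone KO11 or with no filter and 0 without clone KO28, where fewer genes passed the filter. CFLAR had 7.04, 8.75, 6.87 and 5.62 normalized CPM in the KO-labelled libraries after doxorubicin and 22.9, 29.1, 18.6 and 17.9 in the Scr libraries. Its log2 difference was -1.51 (SE 0.19) after doxorubicin and -1.93 (SE 0.18) without treatment (limma with Benjamini-Hochberg adjustment, adjusted p = 1.03e-05 and 7.18e-07), and it was called in every alternative run for both treatments. Without treatment, 17 genes of the list were tested, of which CFLAR was lower and ICAM1 higher, 5.88% each way against 2.54% and 2.3% over all genes tested. ICAM1 passed the filter through the KO-labelled libraries alone in both treatments, and no longer did without any 1 of the 4, and its untreated call was also lost without clone Scr13 or Scr16.

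With doxorubicin, 7 of 19 genes of the NF-κB list were higher and 0 lower in the KO-labelled libraries, 1 of the 7, IL32, having passed the filter through the treated libraries alone, and 1 of 16, TNIP1, was higher in the Scr libraries. These are 36.8% against 10.1% over all genes tested and 6.25% against 6.67%, the latter no more than the background. TNIP1, an inhibitor of NF-κB signalling, rose by 0.35 (SE 0.08) and 0.38 (SE 0.07) on the log2 scale in the 2 kinds of clone (limma with Benjamini-Hochberg adjustment, adjusted p = 0.00226 and 0.00184), calls that were lost without clone KO11 and without clone Scr13. The count of 7 was 4 without the untreated replicate 2 of KO11 or without the treated replicate 1 of KO28, 3 without the treated replicate 1 of KO11 or with no filter, and 1 without clone KO11. Whether the response of these genes differs between the 2 kinds of clone was not tested.

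**Figure D3:**
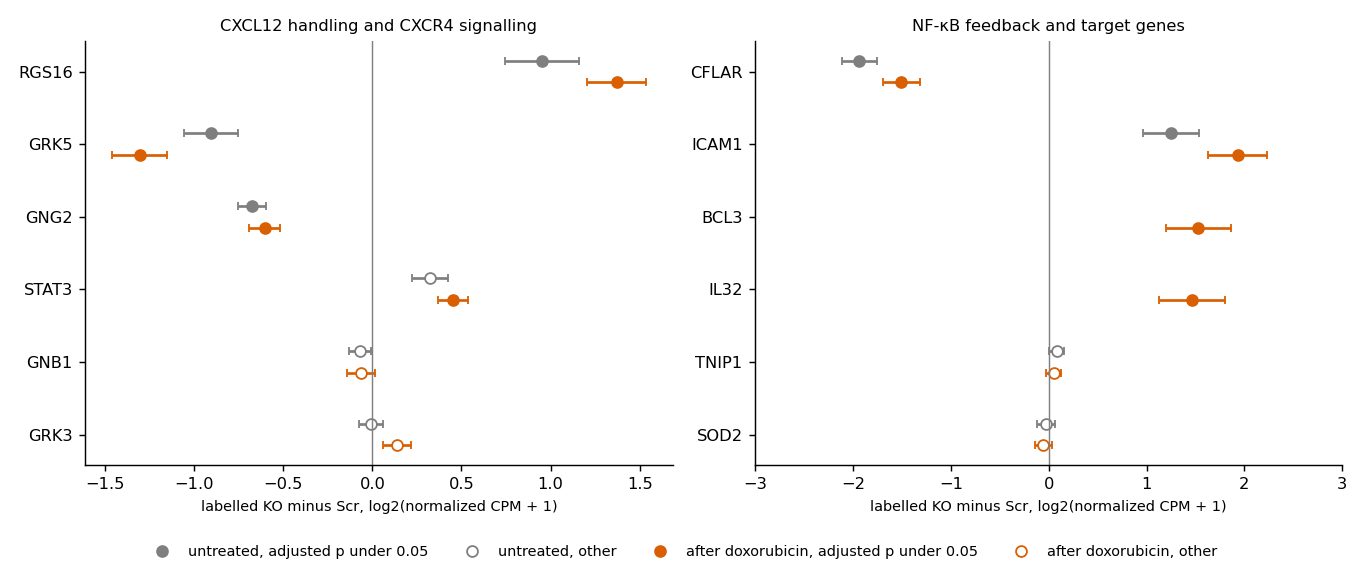
Log2 differences, KO-labelled libraries minus Scr, on the log2(normalized CPM + 1) scale with standard errors, for the 4 genes with the largest differences past the threshold and the 2 most abundant genes of the CXCL12 and CXCR4 list and of the NF-κB list. Filled points passed the limma test, and BCL3 and IL32 have no untreated point because they were not tested there. ICAM1 passed the filter through the KO-labelled libraries alone. RGS16 (0.95 and 1.37) and ICAM1 (1.25 and 1.93) lie to the right, GRK5 (-0.91 and -1.31), GNG2 and CFLAR to the left, and the most abundant genes near 0.

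Markers of other cell types were examined because CXCL12 and CCL2 are typical products of stromal cells. More fibroblast markers were higher than lower in the KO-labelled libraries, and the most abundant, TWIST1, was lower. Of 22 such markers, 16 were tested without treatment, and 10 were higher and 1 lower, with a median log2 difference of 1.27 against -0.0073 over all genes tested. The other 5 did not pass. Over all genes tested, 2.3% were higher without treatment and 4.52% after doxorubicin. After doxorubicin, 14 were tested, 7 were higher, 1 was lower and 6 did not pass, with a median of 0.84 against 0.014. Of those higher, DCN in both treatments and LUM after doxorubicin passed the filter on low values only through the KO-labelled libraries, which leaves 9 without treatment and 5 after doxorubicin. The untreated count of 10 was 6 without replicate 1 of KO28 or clone KO11, 4 without clone Scr16, and 2 without clone KO28 or with no filter. The count of 7 was 5 without any 1 of the treated KO-labelled libraries, and 4 without clone KO28 or with no filter. All 7 calls were kept without replicate 1 of Scr16.

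The matrix genes LUM and DCN, which encode the proteoglycans lumican and decorin, did not overlap between the groups in either treatment. LUM had 12.1, 9.94, 12.6 and 8.24 normalized CPM in the untreated KO-labelled libraries and 3.15, 0.691, 0.921 and 0.511 in Scr libraries of that kind. After doxorubicin, LUM had 9.92, 11.2, 16.4 and 12.7 against 0.535, 0.631, 0.190 and 0.325 normalized CPM, a log2 difference of 3.24 (SE 0.25). DCN had means of 7.09 and 0.489 normalized CPM after doxorubicin. All treated Scr values of both genes were under 1 normalized CPM, and in the fit with no filter each had an adjusted p of 0.0019 (limma with Benjamini-Hochberg adjustment), whereas DCN without treatment did not pass there (adjusted p = 0.0691). DCN rose with doxorubicin in the KO-labelled libraries by 1.22 (SE 0.25; limma with Benjamini-Hochberg adjustment, adjusted p = 0.00115), whereas LUM did not pass there, with 0.20 (SE 0.19). With doxorubicin in the KO-labelled libraries, 2 of 17 fibroblast markers were higher (DCN and ACTA2) and 3 lower, 11.8% and 17.6% against 10.1% and 7.38% over all genes tested. Those lower were PDGFRA, a receptor of platelet-derived growth factor, by -1.24 (SE 0.15; limma with Benjamini-Hochberg adjustment, adjusted p = 2.51e-06, called in 16 of 16 alternatives), COL1A2, and FBLN1, which encodes the matrix protein fibulin 1. The count of 3 lower was 1 without the treated replicate 1 of KO11 or without clone KO28, and 2 without the treated replicate 2 of KO11, the untreated replicate 2 of KO28, the treated replicate 1 of KO28 or clone KO11.

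COL3A1, the type III collagen chain, had means of 189 and 35.1 normalized CPM after doxorubicin, a log2 difference of 2.88 (SE 0.39; limma with Benjamini-Hochberg adjustment, adjusted p = 2.83e-05). Scr libraries varied widely, from 6.88 to 83.9 normalized CPM, the highest again being replicate 1 of Scr16. The difference was 3.46 without that library and 2.32 without the treated replicate 2 of Scr13. The call was lost with no filter. ACTA2, smooth muscle actin, rose with doxorubicin in both kinds of clone, by 1.92 (SE 0.10) in the KO-labelled libraries and by 2.50 (SE 0.20) in the Scr libraries (limma with Benjamini-Hochberg adjustment, adjusted p = 1.35e-12 and 3.17e-07), the Scr libraries being those in which CXCL12 was lower after doxorubicin. TWIST1, a transcription factor of mesenchymal cells and the most abundant gene of the list, was lower in the KO-labelled libraries, with log2 differences of -0.53 (SE 0.08) without treatment and -0.64 (SE 0.08) after doxorubicin (limma with Benjamini-Hochberg adjustment, adjusted p = 0.00011 and 6.68e-06). FBLN1, which follows in abundance, had a log2 difference of 0.24 (SE 0.07) without treatment and passed there, but in 14 of 19 alternatives it did not (limma with Benjamini-Hochberg adjustment, adjusted p = 0.0466 and up to 0.41).

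Summed over the 20 fibroblast markers with a row, untreated KO-labelled libraries reached 1023 ± 78.6 normalized CPM (SD, n = 4) and untreated Scr libraries 836 ± 106. After doxorubicin it was 1082 ± 73.7 and 861 ± 19.0. TWIST1 alone made up 194 and 303 normalized CPM of the treated sums. Of the 3 defining collagen genes, COL1A1 averaged 12.2 and 3.95 normalized CPM after doxorubicin and COL1A2 averaged 0.658 and 0.238.

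Markers of Schwann cells and of mesenchymal-type neuroblastoma cells gave 4 higher and 0 lower of 10 tested without treatment and 6 higher and 0 lower of 11 after doxorubicin, with medians of 0.33 and 0.78. Over all genes tested, 2.3% and 4.52% were higher. The counts of 4 and 6 were 0 and 2 with no filter, and the count of 4 was 2 with DESeq2 and without clone KO28. The Schwann cell gene S100B averaged 0.208 normalized CPM over the 16 libraries and was not tested. The genes that passed after doxorubicin were CD44, VIM, FN1, YAP1, FOSL1 and FOSL2, which encode an adhesion receptor, an intermediate filament, fibronectin and transcriptional regulators. YAP1 had between 9.39 and 9.95 normalized CPM in 3 of the KO-labelled libraries after doxorubicin and more in replicate 1 of KO11, against 0.832, 0.757, 2.95 and 2.40 in the Scr libraries, with a log2 difference of 2.18 (SE 0.28; limma with Benjamini-Hochberg adjustment, adjusted p = 1.28e-05). FN1 had a difference of 2.14 (SE 0.26, adjusted p = 8.77e-06 by the same test), and CD44 of 1.76 (SE 0.28, adjusted p = 0.000156 by the same test). With no filter, the calls of FN1, CD44, VIM and FOSL1 after doxorubicin were lost, and that of FOSL1 also with DESeq2 and without clone KO11. YAP1 and FOSL1 passed the filter mainly through the KO-labelled libraries, with 2 Scr libraries past it for each gene.

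FOSL1 and CD44 were also higher with doxorubicin in the KO-labelled libraries, by 1.94 (SE 0.29) and 1.66 (SE 0.23) on the log2 scale (limma with Benjamini-Hochberg adjustment, adjusted p = 3.16e-05 and 1.21e-05). FOSL1 passed the filter there mainly through the treated libraries, with 1 untreated library past it. VIM, the most abundant gene of the list, differed by 1.23 (SE 0.17; limma with Benjamini-Hochberg adjustment, adjusted p = 3.96e-05) between the genotypes after doxorubicin. Summed over the 15 markers with a row, KO-labelled libraries reached 871 ± 150 normalized CPM (SD, n = 4) after doxorubicin and Scr libraries 445 ± 122.

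Few immune and endothelial markers could be tested. Of 19 markers, 10 had a row and 2 passed the filter between the genotypes, of which none was higher in the KO-labelled libraries, and PTPRC, PECAM1 and CDH5 were not analysed here. The most abundant, ENG, was lower in the KO-labelled libraries after doxorubicin, with a log2 difference of -0.30 (SE 0.09; limma with Benjamini-Hochberg adjustment, adjusted p = 0.0285), a call lost in 5 of 8 fits with 1 library left out, those without replicate 2 of KO11, Scr13 or Scr16 and without either replicate of KO28. CD8A averaged 4.59 and 4.79 normalized CPM after doxorubicin. The macrophage genes CD14, CSF1R and ITGAM averaged 0.685, 0.00778 and 0.123 normalized CPM over all libraries.

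Adrenergic markers gave 3 higher and 3 lower of 18 tested without treatment and 5 higher and 2 lower after doxorubicin, with medians of 0.048 and -0.043. Of the 18, 16.7% were thus called in each direction without treatment, against 2.3% and 2.54% over all genes tested, and 27.8% and 11.1% after doxorubicin, against 4.52% and 4.17%. The vesicular transporter gene SLC18A1 was higher by 0.40 (SE 0.10) and the transcription factor gene TBX2 by 0.45 (SE 0.08) in the KO-labelled libraries after doxorubicin (limma with Benjamini-Hochberg adjustment, adjusted p = 0.00902 and 0.000847). DDC, the enzyme that makes dopamine, did not pass, with -0.14 (SE 0.11). The counts of 5 and 2 were 3 and 1 without the treated replicate 1 of KO11, where SLC18A1 was lost, and 1 and 1 with no filter, where SLC18A1 and TBX2 were lost, and the untreated counts of 3 and 3 were 1 and 1 without replicate 2 of KO11, without clone Scr13 or Scr16 and with no filter, 1 and 2 without replicate 1 of Scr13, and 1 and 3 without replicate 1 of Scr16 or of KO28. Part of the fibroblast markers (7 of 14, and 5 besides DCN and LUM) were thus higher in the KO-labelled libraries after doxorubicin. DCN and LUM had passed the filter only through these libraries. Of the mesenchymal-type markers, 6 of 11 were higher, and 2 with no filter. The share over all genes tested was 4.52%. CXCL12 and CCL2 were also higher there, and the part of these markers in the result was not tested.

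**Figure D4:**
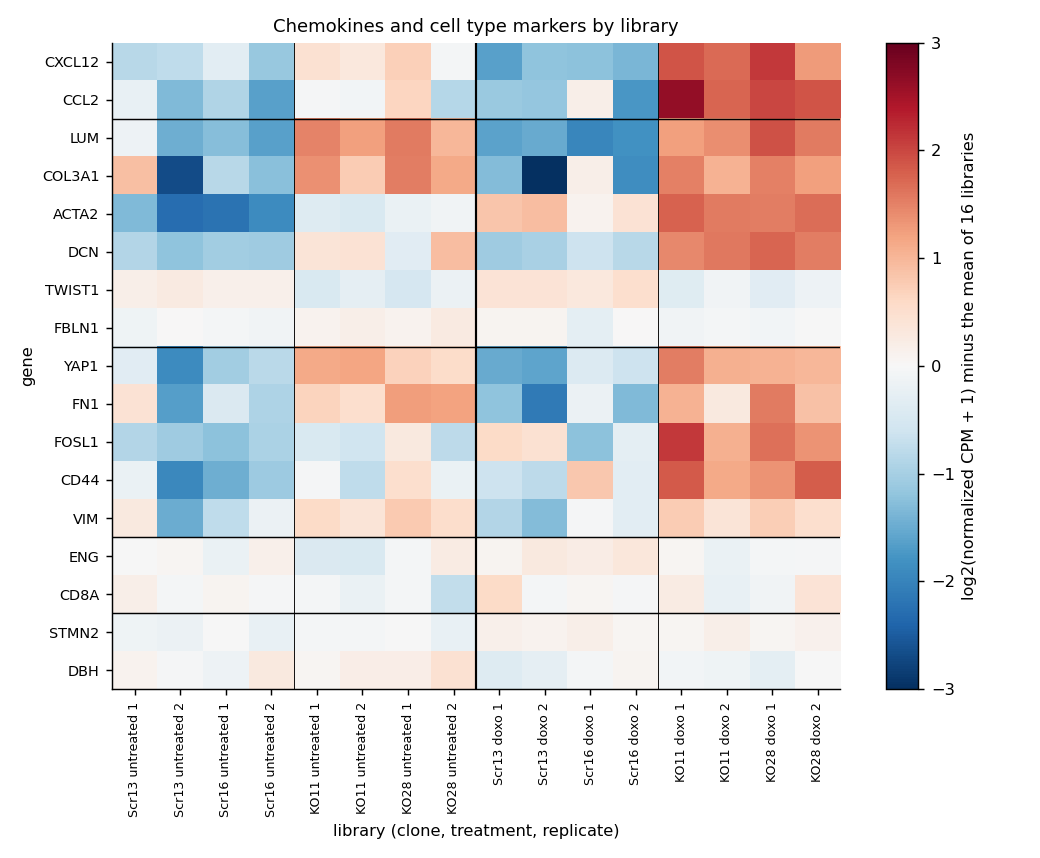
Log2(normalized CPM + 1) of CXCL12, CCL2, named markers and the 2 most abundant adrenergic genes in each of the 16 libraries, minus the mean of the gene over all 16, as a colour scale that ends at 3 in both directions. Horizontal lines separate the chemokines and the fibroblast, mesenchymal-type, immune and endothelial, and adrenergic markers, the thick vertical line separates untreated from treated libraries, and thin lines separate Scr from KO-labelled. LUM, DCN and YAP1 follow CXCL12 between the clones, ACTA2 also rises with doxorubicin in the Scr libraries, TWIST1 runs the other way, and the adrenergic markers vary little.

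Over the 16 libraries, the log2 values of CXCL12 and CCL2 had a Pearson correlation of 0.899, and CXCR4 had -0.12 with CXCL12 and 0.048 with CCL2. The libraries form 4 groups, so that these values describe shared group differences. Among 15325 genes, those most like CXCL12 over the 16 libraries were THBS2 at 0.966, which encodes the matrix protein thrombospondin 2, LGR5 at 0.950, a receptor of R-spondins, FAXDC2 at 0.945, MGP at 0.943, which encodes matrix Gla protein, and CAPN6 at 0.934. THBS2 averaged 3.06 normalized CPM in the untreated and 9.59 in the treated KO-labelled libraries, and 0.00984 and 0 in the Scr libraries. MGP averaged 8.41 and 14.2 normalized CPM in the KO-labelled libraries and 0.821 and 0.139 in the Scr libraries, in the same order of groups as CXCL12.

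The genes most like CCL2 were TRIM55 at 0.951, a muscle RING finger protein, ELK3 at 0.947, an ETS transcription factor, IL32 at 0.943, SOX9 at 0.942, a transcription factor of cartilage and neural crest derivatives, and ABCC3 at 0.940, an efflux transporter. SOX9 averaged 2.86 normalized CPM in the untreated and 15.6 in the treated KO-labelled libraries, and 1.85 and 2.49 in the Scr libraries. The genes most like CXCR4 had lower correlations, with PCYOX1 at 0.816, CCDC122 at 0.781, MRM2 at 0.774, ZNF266 at 0.761 and CNIH3 at 0.759.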

How the data were processed

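RNA-seq values of 16 SH-SY5Y libraries were used. Per the submitters' processing notes, the tools were bcl2fastq, HISAT2 2.1.0, HTSeq and edgeR, with the build GRCh38, and the annotation release and strand setting are not given in the sources used here. The library kit is directional. The library values are a signal deposited by the authors, CPM of a library size multiplied by a factor (normalized CPM), with factors between 0.974 and 1.03. The log2 fold changes, log2 abundances, p-values, q-values and the rank score that the authors deposited belong to their own comparisons and were not used. No value column was left without a library (0). Whole reads were recovered for 100% of the values (tolerance 0.01 reads), between 10481177 and 25086085 per library. A floor of 3 reads equals 0.118 to 0.285 normalized CPM, for counting error only. Symbols were found for 95.9% of the identifiers (GENCODE 29), and promoter sequences came from RefSeq (GRCh38.p14), which held CXCL12 and CXCR4 of the 4 genes.

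Since the deposited values are normalized, limma 3.58.1 (R 4.3.3, abundance trend) on log2(normalized CPM + 1) replaced the planned edgeR test. It was run for genes with at least 1 normalized CPM in 4 of 8 libraries, at a Benjamini-Hochberg adjusted p under 0.05. It was also tried on simulated libraries, which shared no clones and in which only more abundant genes were changed. The simulation thus does not cover shared clones or changes of genes at low levels. edgeR 4.0.16's quasi-likelihood test on the recovered reads called 637 and 1188 genes between genotypes without treatment and after doxorubicin, and 1608 and 2400 with doxorubicin in the Scr libraries and in the KO-labelled ones. Named genes were the 4 with the largest differences past the threshold and the 2 most abundant of each list (for chemokines and receptors every gene past the threshold and the 3 most abundant), and the 5 genes with the highest Pearson correlation with each member. TRPM2, neighbours, TH, INSM1, CTSB, IRF1, HMGB1, COL1A1, COL1A2, PDGFRA, FOSL2, S100B and the macrophage genes were named outside this rule after their values were seen, and a gene that the rule names is not reported here. The members and lists were chosen with earlier results of these data known. The alternatives were other pseudocounts, filters and scalings, edgeR, DESeq2 1.42.0, clone and replicate blocks, each library and each clone left out, and, chosen after seeing the data, both treatments scaled together by TMM.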

Additional observations from a re-analysis of the deposited data

Results flagged for a closer look

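CXCL12 was marked for a closer look because its values moved in opposite directions with doxorubicin in the 2 kinds of clone. The difference between treated and untreated libraries was 1.39 (SE 0.23) on the log2(normalized CPM + 1) scale in the KO-labelled libraries, where every treated library lay above every untreated one, and -0.60 (SE 0.30) in the Scr libraries, where every treated library lay below every untreated one. The Scr difference was smaller than 2 standard errors, and CXCL12 did not pass the filter on low values there. The difference between the 2 responses was not tested. The Scr values rest on 2 to 8 reads per library after doxorubicin and 10 to 29 without treatment.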

How the results depend on the processing

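The numbers of genes called were 695 and 1266 between the genotypes without treatment and after doxorubicin, and 1669 and 2539 with doxorubicin in the Scr libraries and in the KO-labelled libraries. With no filter they were 269, 610, 646 and 1552. With 1 clone left out, the untreated count was 330 without Scr13 and 327 without Scr16, the count after doxorubicin 510 without KO11 and 575 without KO28, the count in the Scr libraries 237 without Scr13 and 781 without Scr16, and the count in the KO-labelled libraries 995 without KO11. With 1 library left out, the count after doxorubicin lay between 814 (without replicate 1 of KO11) and 1314, and that in the Scr libraries between 1081 (without replicate 1 of Scr13 after doxorubicin) and 1676. Scaling both treatments together gave 1636 and 2540. Over all genes together, replicate numbers showed no common pairing of the samples (correlations of deviations between -0.100 and 0.12 over 28 pairs). With the replicate block the counts were 697, 1365, 1876 and 2540. Single genes can still follow the replicate number, as CCL2 and CXCR4 did, and the standard errors given for both genes ignore this. Of the 12 differences of CXCL12, CXCR4 and CCL2, 10 moved by less than 1 SD in 161 of 170 alternatives. The CXCL12 difference after doxorubicin had 13 alternatives, none of which left out a KO-labelled library or clone. That of CCL2 had 17, none of which left out a KO-labelled clone. Those of CXCL12 and CCL2 with doxorubicin in the Scr libraries were not refitted under the alternatives, since both genes fail the filter there, and the ratio of untreated to treated CXCL12 means was 2.39 to 3.53 with 1 library left out. The other 9 of the 170 came from a smaller pseudocount or from edgeR and DESeq2, which raised the CXCL12 difference after doxorubicin to 4.65, 4.94 and 4.97. The untreated CXCL12 difference was 1.67, 1.71 and 1.72 under the same 3 settings. With the smaller pseudocount, the CCL2 difference was 1.60 without treatment and 4.12 after doxorubicin. Of 1948 alternatives for 113 calls of listed genes, 340 lost the call and 0 reversed it. CXCL12 in the Scr libraries and TRPM2 rest on few reads. The cause of the changes was not tested.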
